A study of Rattus norvegicus with 2 samples.

Results

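The cells described here are neutrophils of the rat zygomatic maxillary suture that lay at the stage marked by Ngp, Lcn2, Cd177 and Hp. They were 628 of the 10240 cells in the deposited tables and of the 9220 cells kept. Of them, 363 belonged to distraction and 265 to sham. A cell was kept if it had 500 or more molecules counted by unique barcodes (UMIs) and 200 or more genes, with mitochondrial transcripts below 25% of its UMIs. A cell entered the neutrophil gate when S100a8 and S100a9 made up at least 2% of its UMIs, when Mpo, Elane, Prtn3 and Ctsg together stayed under 1%, and when Vcan and Fn1 together had under 5 UMIs. The gate held 1176 distraction cells and 743 sham cells. Each gated cell received 4 stage scores, the z-scored means of 4 genes each: A from Np4, Defa5, Defa11 and Camp, B from Ngp, Lcn2, Cd177 and Hp, C from Mmp8, Mmp9, Retnlg and Lrg1, and D from Ccl6, Il1r2, G0s2 and Ifit3. The members were selected on these measured values: they are the cells whose highest score was B.

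The distraction library came from sutures of 4-week-old rats in which a W-shaped distractor had pulled for 7 days, made of nickel-titanium wire 0.4 mm thick and calibrated to start at 20 g. The sham library came from rats of the same age with the holes drilled and no distractor placed, also after 7 days. Chloral hydrate anaesthesia, the skin incision and the partly detached chewing muscles were common to both groups. Each group had 1 library, the sources used here do not state how many animals each held, and no difference between the libraries below has a replicate check. Intervals are 95% intervals that cover counting error only. Poly(A) RNA of single cells was captured on the BD Rhapsody system from crushed tissue. Outside the gate, cells assigned by markers included 4382 of the B lineage and 1095 erythroid cells over both libraries.

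Neutrophils are made in bone marrow, where proliferating precursors become cells that no longer divide. They fill their granules in sequence: primary granules first, then secondary (specific) granules, then gelatinase-rich tertiary granules, then secretory vesicles that carry surface receptors, so the granule transcripts in a cell tell how far it has come. Ngp (neutrophilic granule protein), Lcn2 (the iron-siderophore binder lipocalin 2), Cd177 (a surface protein held in specific granules) and Hp (haptoglobin, which binds free haemoglobin) belong to the secondary granule period, in mice the myelocyte and metamyelocyte stages.

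The upstream sequences of the score B genes are shown because the rule scores cells by the mean level of these 4 transcripts. RefSeq promoter records of GRCr8 were found for 3 of the 4 genes, and the 250 bases before the start are given 5′ to 3′ on the gene's strand, in lower case with each sense-strand ATAAA in capitals. These letters resemble the core promoter element known as the TATA box. The windows lie at chr8:119272355-119272604 (plus strand, Ngp), chr3:36081781-36082030 (minus strand, Lcn2) and chr1:89488444-89488693 (minus strand, Cd177). The count tables were made on another build, Rnor_6.0. Hp is named only.
Ngp: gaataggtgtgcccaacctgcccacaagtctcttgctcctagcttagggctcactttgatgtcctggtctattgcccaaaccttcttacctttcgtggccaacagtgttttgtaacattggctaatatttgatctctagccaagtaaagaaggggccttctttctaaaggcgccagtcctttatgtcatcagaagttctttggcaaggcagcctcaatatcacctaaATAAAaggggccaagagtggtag
Lcn2: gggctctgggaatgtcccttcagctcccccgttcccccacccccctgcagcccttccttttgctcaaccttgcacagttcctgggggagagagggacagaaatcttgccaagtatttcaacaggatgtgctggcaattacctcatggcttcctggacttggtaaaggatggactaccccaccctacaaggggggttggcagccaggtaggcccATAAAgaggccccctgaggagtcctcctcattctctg
Cd177: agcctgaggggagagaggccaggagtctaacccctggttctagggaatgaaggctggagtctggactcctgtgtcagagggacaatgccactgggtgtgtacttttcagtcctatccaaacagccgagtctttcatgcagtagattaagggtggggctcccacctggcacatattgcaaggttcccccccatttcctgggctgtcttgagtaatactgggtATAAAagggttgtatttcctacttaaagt

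Each of the 3 windows held 1 sense-strand ATAAA, at -23 to -19 in Ngp (with an antisense match at -71 to -67), at -37 to -33 in Lcn2 and at -29 to -25 in Cd177, counted from the start. A sense-strand ATAAA anywhere in such a window was present in 25.2% of 33469 RefSeq promoter records, and on either strand in 39.3%. The ATAAA letters were chosen after the sequences were seen. The letters TTGCNNAA, a motif of the C/EBP family of granulocyte transcription factors, lay at -179 to -172 (sense) and -52 to -45 (antisense) in Ngp and at -191 to -184 (sense) in Lcn2, overlapped no ATAAA, and were absent from the Cd177 window. They were present on either strand in 9.22% of the records. GAGGAA, a motif of the myeloid factor PU.1, was in none of the 3 windows on either strand and in 23.3% of the records.

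The members carried the markers that define them, which the rule fixes. Per 10000 UMIs of a cell, Ngp had a lowest value of 9.23, a median of 620.5 and a highest of 1489 in distraction members, and a lowest of 0, a median of 520.7 and a highest of 1383 in sham members. Lcn2 had a lowest value of 3.97, a median of 168.2 and a highest of 481.2 in distraction members, against 2.10, 186.5 and 571.3 in sham members. Cd177 ranged to 41.6 with a median of 12.9 in distraction members and to 52.5 with a median of 10.8 in sham members. Hp ranged to 142.7 with a median of 18.3 in distraction members and to 78.9 with a median of 12.7 in sham members. The values of distraction and sham members overlapped for each of these genes, with the highest Hp values in distraction, and Ngp had a UMI in 363 of 363 distraction members and 264 of 265 sham members. Summed over members, Ngp stood at 58719 CPM, the counts scaled to a total of 1000000, in distraction and 53866 in sham, and Lcn2 at 18955 CPM in distraction and 19454 CPM in sham.

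**Figure D1:**
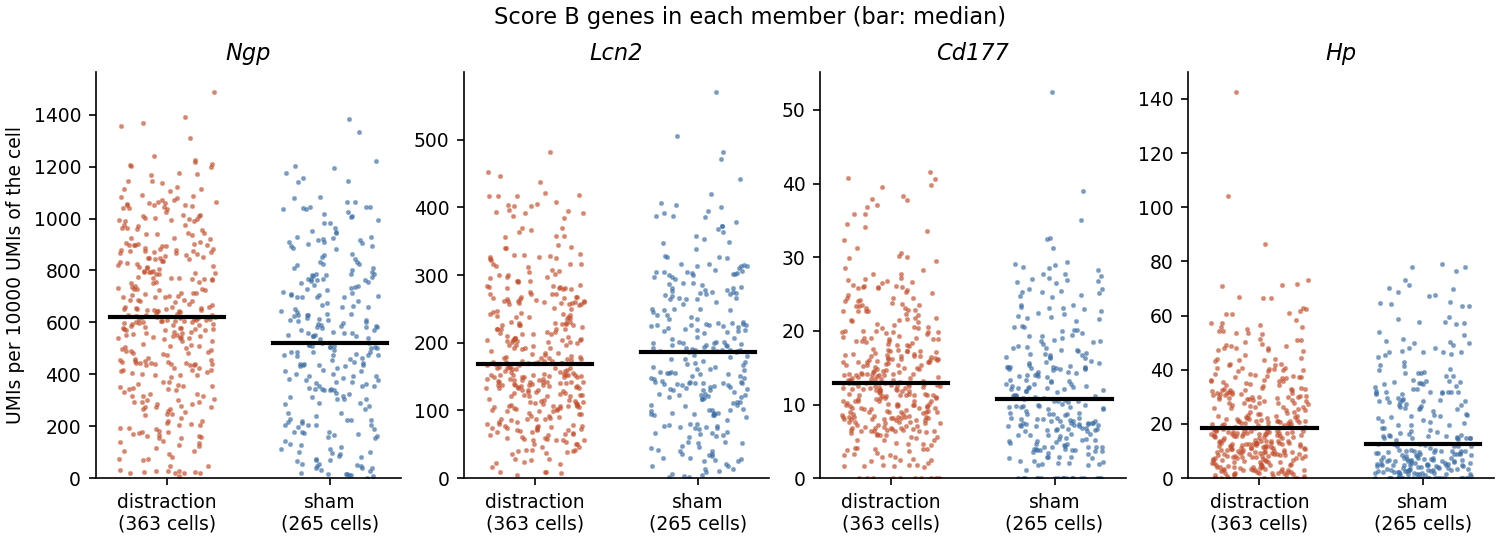
UMIs per 10000 UMIs of the cell for Ngp, Lcn2, Cd177 and Hp, 1 point per member, with distraction left and sham right and the median as a bar. The median of Ngp is 620.5 in distraction members and 520.7 in sham members, and the points of the libraries overlap.

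Most molecules of these genes in the kept cells lay in the members, which the rule favours because it picks cells by these genes. They held 90.1% of all Ngp UMIs of kept distraction cells and 91.1% of kept sham cells, 76.2% and 75.7% of Lcn2 in distraction and sham, 71.8% and 68.3% of Cd177, and 62.3% and 61.2% of Hp. Cells outside the gate held Ngp at 99.3 CPM in distraction and 94.7 CPM in sham. Camp (cathelicidin, an antimicrobial peptide of secondary granules) belongs to score A, but its level was 18709 CPM in distraction members and 17175 CPM in sham members, against 14796 CPM in distraction and 18007 CPM in sham cells of stage A. Ltf (lactoferrin), a defining secondary granule gene, had 0 UMIs in the members of both libraries, which allows up to 3 UMIs among the 2419808 of distraction members and the 1532312 of sham members. The other stages also had 0 Ltf UMIs, apart from 2 in sham stage A. Ltf was thus hardly counted anywhere in the gate, and its 0 does not set the members apart.

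The members are a range of a score and not a sharply bounded type. The lead of B over the next score was under 0.1 z in 7 distraction members and 8 sham members, and 11 distraction cells and 7 sham cells outside lost by under 0.1 z. Just inside that edge the median Ngp per 10000 UMIs was 278.8 in distraction and 135.6 in sham cells, and just outside it 311.0 in distraction and 311.9 in sham cells. The second highest score was A in 190 distraction members (52.3%, exact binomial interval 47.1 to 57.6%) and in 124 sham members (46.8%, 40.7 to 53.0%). It was C in 167 distraction members and 134 sham members, and D in 6 distraction members and 7 sham members. Genes of the other scores were present at varied levels. Lrg1 of score C had a median of 9.53 per 10000 in distraction and 8.26 in sham members. Defa5 had a median of 2.18 per 10000 in distraction and 1.56 in sham members, Mmp8 35.7 in distraction and 36.9 in sham members, Il1r2 1.53 in distraction and 1.61 in sham members, and Ccl6 0 in both.

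Members made up 30.9% of gated neutrophils in the distraction library (363 of 1176, 28.2 to 33.6%) and 35.7% in the sham library (265 of 743, 32.2 to 39.2%). The ratio of these shares was 0.865 (0.737 to 1.02), so the interval reached 1. Of all kept cells they made up 8.99% in distraction (8.13 to 9.92%) and 5.11% in sham (4.53 to 5.75%), a ratio of 1.76 (1.5 to 2.07). By the same measure the ratio was 1.79 for stage A, 2.29 for stage C and 2.50 (2.06 to 3.03) for stage D, and the whole gate held 29.1% of kept cells in distraction and 14.3% in sham. Within the gate, the share of stage D was 27.1% in distraction and 22.1% in sham (ratio 1.23, 1.01 to 1.49). Members had a median of 5914 UMIs in distraction and 5458 UMIs in sham, between stage A with 14330 and 10182 and stage C with 3590 and 3505 in distraction and sham. The libraries shared 22 cell barcodes, which included 1 distraction member and 1 sham member and no cell that was a member in both.

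S100a8 and S100a9, which encode the subunits of calprotectin and were used by the gate, took a median of 20.6% of the UMIs of a distraction member (2.31 to 39.3%) and 16.3% of a sham member (2.19 to 34.6%). Their CPM ratios of distraction over sham members were 1.24 for S100a8 and 1.30 for S100a9. Ratios of the other genes were therefore computed under 3 scalings.

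Members were set beside stage A cells, in which the defensins peak, to describe what the score genes do not show. The scores sorted these same cells, so the values describe the sorted cells and are no test. A gene was counted as higher or lower when its CPM ratio passed 1.5 in that direction with an interval on 1 side of 1 in each library. Of 2259 genes with at least 30 counts and 50 CPM, 434 (19.2%) were higher and 383 (17.0%) lower in members than in stage A cells. In this and the later stage comparisons, the 50 CPM had to be reached in only 1 of the 2 groups. A gene that reached it in 1 group only could hardly be called the other way. The median log2 ratio over these genes was -0.00 in distraction and 0.08 in sham.

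Of the genes not used by the rule, both tested of the defensin and cathelicidin list were lower in members than in stage A. So were 2 of 3 tested of the primary granule list. Of these lower genes, only RatNP-3b reached 50 CPM in both stages of both libraries. Defa10, Ms4a3 and Nkg7 reached it in stage A only, so the minimum favoured this direction and the counts are no support. The third primary granule gene, Ctsc (cathepsin C, which activates granule proteases), stood at 188 CPM in members and 191 CPM in stage A of distraction, and at 215 CPM and 128 CPM in members and stage A of sham. RatNP-3b, a neutrophil defensin gene of the rat, stood at 613 CPM in distraction members and 79332 CPM in distraction stage A cells, and at 488 CPM in sham members and 69815 CPM in sham stage A cells. Defensin genes are near-identical copies, so the split of reads among them is uncertain. Ms4a3, a marker of committed granulocyte and monocyte precursors in mice, stood at 6.20 CPM in members against 414 CPM in stage A of distraction, and at 1.31 CPM against 287 CPM in sham. Nkg7 (a cytotoxic granule membrane protein), Srgn (serglycin, the proteoglycan that holds granule proteins) and Csf1 (macrophage colony-stimulating factor) were also among the lowest by ratio, with Srgn at 0.0808 times stage A in distraction and 0.106 times in sham. Defa5, a score gene, stood at 306 CPM in members, 326 CPM in stage C and 287 CPM in stage D of distraction, and at 257 CPM, 174 CPM and 426 CPM in the same stages of sham.

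Secondary granule genes that the rule did not use were partly higher in members than in stage A: 4 of 9 tested were higher and none lower. Pglyrp1 (a peptidoglycan recognition protein) stood at 3906 CPM in members and 1243 CPM in stage A of distraction, and at 3098 CPM and 1239 CPM in members and stage A of sham. Ckap4 was 4.78 times stage A in distraction and 4.05 times in sham. Olfm4 (olfactomedin 4, a protein of a subset of neutrophils) was 1.65 times stage A in distraction and 1.60 times in sham, and Chi3l1 (a chitinase-like protein) 1.96 times in distraction and 1.78 times in sham. Of 5 tertiary granule genes tested, 3 were higher. Tcn2 (transcobalamin, a vitamin B12 carrier) was 28.9 times stage A in distraction and 20.2 times in sham. Slc11a1 (a metal transporter of the phagosome) was 13.4 and 15.2 times in distraction and sham, and Adam8 11.3 and 8.75 times. These 3 genes reached 50 CPM in members only, so the minimum favoured this direction and their count is no support.

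Receptor genes stood higher in members than in stage A in 10 of 16 tested, and 1, Alpl, was lower. Cxcr2, the receptor that draws neutrophils out of marrow, stood at 248 CPM in members and 48.9 CPM in stage A of distraction, and at 242 CPM and 72.7 CPM in members and stage A of sham. Cxcr4, the receptor that retains them, stood at 918 CPM in members and 509 CPM in stage A of distraction, and at 1300 CPM and 830 CPM in members and stage A of sham. Cytokine genes were higher in 7 of 10 and lower in 2. Il1b was among the higher ones, at 5.18 times stage A in distraction and 5.21 times in sham. Il1rn (the interleukin 1 receptor antagonist) was 17.2 times stage A in distraction and 22.3 times in sham. The other genes with the largest ratios upward were Degs1 (a ceramide-forming desaturase), Crispld2, Aqp9 (a glycerol and water channel) and Sod2 (the mitochondrial superoxide dismutase), with Degs1 at 28.6 times stage A in distraction and 33.0 times in sham.

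S phase genes, which copy DNA, summed over all 23 listed to 715 CPM in members and 3125 CPM in stage A of distraction, and to 901 CPM and 2999 CPM in members and stage A of sham. The 14 that passed the minimum were called lower, 12 of them without reaching 50 CPM in both stages of both libraries, so their count is no support. Tk1 (thymidine kinase 1) stood at 14.5 CPM in members and 104 CPM in stage A of distraction, and at 14.4 CPM and 104 CPM in members and stage A of sham. Dut (dUTPase) was at 0.143 times stage A in distraction and 0.185 times in sham. Of 21 genes of protein folding and export in the endoplasmic reticulum, 11 were lower and none higher, and of 18 respiratory chain genes 7 were lower and none higher. G2 and M phase genes were lower in 9 of 16 and higher in none, and 7 of the 9 reached 50 CPM only in part of the groups.

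**Figure D2:**
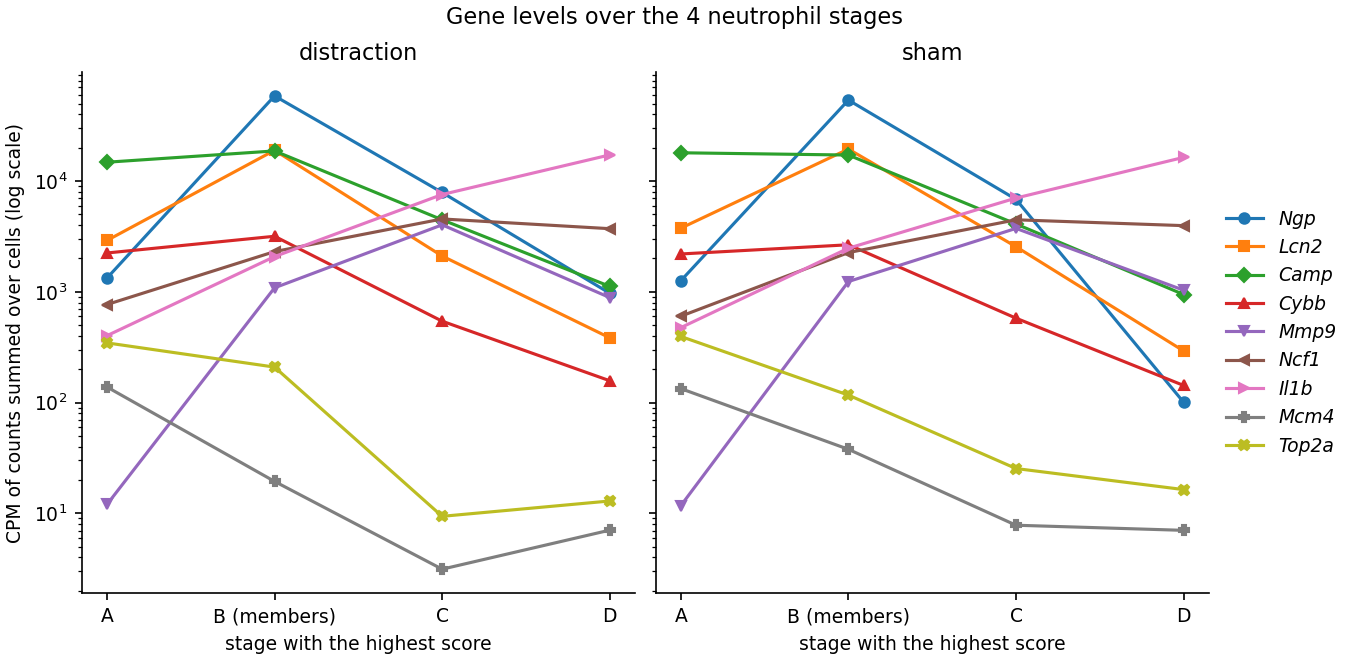
CPM of counts summed over the cells of each stage, on a log scale, for 9 genes in the distraction library (left) and the sham library (right). Ngp and Lcn2 peak in the members, Mmp9 peaks in stage C at 4026 CPM in distraction and 3738 CPM in sham, and Top2a declines from stage A to stage C in both libraries.

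Members were next set beside stage C cells, in which the gelatinase-type granule genes peak. Of 2149 genes tested, 349 (16.2%) were higher in members in both libraries and 536 (24.9%) lower. The median log2 ratio over all of them was -0.17 in distraction and -0.15 in sham. Receptor genes were lower in members in 10 of 17 tested and higher in 3, and cytokine genes were lower in 8 of 10 and higher in none. Csf3r, the receptor for granulocyte colony-stimulating factor, stood at 63.6 CPM in members and 357 CPM in stage C of distraction, and at 51.6 CPM and 334 CPM in members and stage C of sham. Cxcl2, a neutrophil-attracting chemokine, stood at 429 CPM in members and 5038 CPM in stage C of distraction, and at 478 CPM and 4858 CPM in members and stage C of sham.

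The lowest ratios of members over stage C were those of Stfa2l1 and Stfa2 (stefin protease inhibitors, a family with near-identical copies), Ifit1bl, Slc2a6 (a glucose transporter), Steap4 (a metalloreductase), Hopx, Jaml (a junctional adhesion protein) and Slfn4 (a schlafen protein of myeloid cells). Slfn4 stood at 113 CPM in members and 1784 CPM in stage C of distraction, and at 77.7 CPM and 1045 CPM in members and stage C of sham. Stfa2l1 had 2 UMIs in distraction members and none in sham members, against 140 and 52 UMIs in stage C of distraction and sham.

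The highest ratios of members over stage C were those of Agpat5 (a phospholipid-building acyltransferase), Smchd1 (a chromatin protein), Chit1 (chitotriosidase, a chitinase of phagocytes), Qsox1 (a disulphide-forming oxidase), Piwil2, Zdhhc23, Tmem171 and Retn (resistin). Chit1 stood at 418 CPM in members and 26.1 CPM in stage C of distraction, and at 397 CPM and 21.5 CPM in members and stage C of sham. Qsox1 stood at 611 CPM in members and 40.7 CPM in stage C of distraction, and at 701 CPM and 48.8 CPM in members and stage C of sham. Agpat5, Smchd1, Piwil2 and Zdhhc23 had 1 UMI each in sham stage C cells, so the size of their sham ratios is poorly fixed: that of Piwil2 had an interval of 7.66 to 1729.

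Secondary granule genes were higher in members than in stage C in 4 of 9 tested and lower in 1, Chi3l1. Cybb (the catalytic subunit of the NADPH oxidase) stood at 3174 CPM in members and 543 CPM in stage C of distraction, and at 2659 CPM and 578 CPM in members and stage C of sham. Ncf1 (the p47phox organiser of the same oxidase) was lower in members than in stage C, at 0.507 times stage C in distraction and 0.506 times in sham, while it was 3.0 times stage A in distraction and 3.75 times in sham. The membrane subunit and the cytosolic subunit were thus highest in different stages. Respiratory chain genes were higher in members than in stage C in 6 of 15 and lower in none, and folding genes in 4 of 15.

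**Figure D3:**
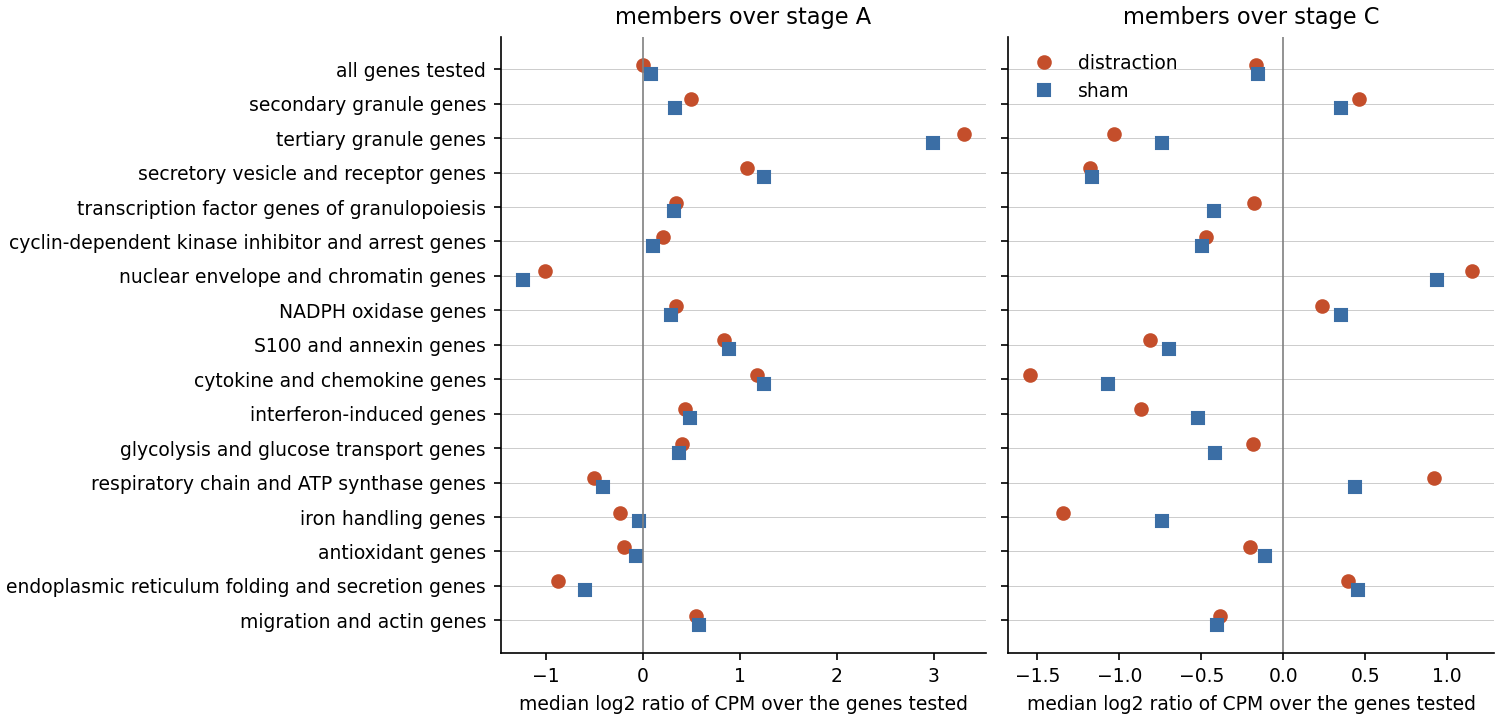
Median log2 CPM ratio over the tested genes of each list, for members over stage A (left panel) and over stage C (right panel), with distraction as circles and sham as squares. Receptor, tertiary granule and cytokine lists lie above 0 against stage A and below 0 against stage C in both libraries, and respiratory chain and folding lists lie on the opposite sides.

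Members with A as second score were compared with members with C as second score, over 2051 genes, of which 167 (8.14%) were higher in both libraries and 186 (9.07%) lower. The scores made this split, so score genes differ by construction, for example Mmp9. Of 24 listed G2 and M phase genes 8 were tested and called higher with A second, but 7 of the 8 did not reach 50 CPM in both groups of both libraries, so the minimum itself favoured this direction. Tpx2 (a spindle assembly factor) stood at 89.1 CPM with A second and 9.51 CPM with C second in distraction, and at 63.7 CPM and 4.20 CPM in sham. Pttg1 (securin), Troap, Arhgap11a, Ube2c, Cdk1, Hsd17b12 and Prc1 completed the 8 highest. The lowest were Ctsf (cathepsin F), Jaml, Dhrs9, Metrnl, Slc37a3, Aqp9, Emb and Il1rn. Ctsf stood at 6.27 CPM with A second and 135 CPM with C second in distraction, and at 3.82 CPM and 118 CPM in sham. Receptor genes were lower in 8 of 15 and higher in 1, and cytokine genes were lower in 7 of 9.

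Distraction members were then compared with sham members. Scaled by total counts, 43 of 2193 genes tested (1.96%) were higher in distraction members past 1.5-fold with an interval above 1, and 176 (8.03%) were lower. The balance of these calls depended on the scaling: with TMM factors of edgeR, which trim extreme genes, 141 of 2201 (6.41%) were higher and 62 (2.82%) lower, and with totals that leave out the rule's genes 112 of 2795 (4.01%) were higher and 188 (6.73%) lower. The median log2 ratio over the 2193 genes was -0.12 by totals, 0.10 by TMM factors and -0.02 by totals without the rule's genes. Higher calls made up 19.6% of all calls by totals and 69.5% by TMM factors, so which direction held more genes depended on the scaling.

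G2 and M phase genes run the last steps before a cell divides and the division itself. Summed over the 23 listed G2 and M phase genes found in the tables, the level was 1539 CPM in distraction members (1490 to 1590) and 871 CPM in sham members (825 to 919). It was not higher in distraction in the other stages: stage A had 2370 CPM in distraction and 2723 CPM in sham, stage C 295 and 430 CPM, and stage D 537 and 651 CPM. The difference between stages in this ratio has no replicate test.

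Of the 24 listed genes 11 passed the minimum counts and 10 of these were called higher by totals, where 1.96% of all genes tested were. Of the 10, 8 reached 50 CPM in distraction members only and so had to differ, and the count supports nothing by itself. Of the 3 genes at 50 CPM in both libraries, 2 were called, Top2a and Mki67. By TMM factors 11 of 12 were called higher, where 6.41% of all genes were, and without the rule's genes 14 of 15, where 4.01% were. The same minimum in 1 library applied under both scalings, so these counts support nothing by themselves either. Ube2c, the ubiquitin-conjugating enzyme of the anaphase-promoting complex, had 419 UMIs in 60 distraction members and 73 UMIs in 28 sham members, or 173 CPM in distraction and 47.6 CPM in sham (ratio 3.63, 2.83 to 4.73). Aurka (Aurora kinase A, of the spindle poles) stood at 60.3 CPM in distraction and 21.5 CPM in sham (ratio 2.80, 1.91 to 4.22), and Plk1 (Polo-like kinase 1) at 59.5 CPM in distraction and 21.5 CPM in sham (ratio 2.76, 1.88 to 4.17).

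Other genes of the list had smaller ratios by totals. Top2a (topoisomerase II alpha) had a ratio of 1.79 (1.51 to 2.13), Mki67 (the Ki-67 antigen, under 10% of its level in erythroid cells) 1.59 (1.26 to 2.0) and Cdk1 (the mitotic kinase) 1.69 (1.24 to 2.31). Cks2, a Cdk1-binding subunit, did not reach 1.5, with 1.18 (1.03 to 1.35). No S phase gene was called among the 3 tested: Pcna stood at 373 CPM in distraction members and 453 CPM in sham members. The highest cell held 9.79% of the Ube2c UMIs in distraction and 12.3% in sham. The count of 10 was 1 with each cell thinned to 2000 UMIs. It was 2 without cells that had 3 or more UMIs of another type's markers or were among the deepest 5% of their library. Erythroid markers alone had that many UMIs in 53.4% of distraction members and 54.3% of sham members. Most members were thus left out, and fewer genes could reach the minimum counts. Without those mixed and deepest cells Ube2c had a log2 ratio of 1.67 and Aurka one of 0.44. The mixed and the deepest cells were left out together, and their separate parts were not tested.

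**Figure D4:**
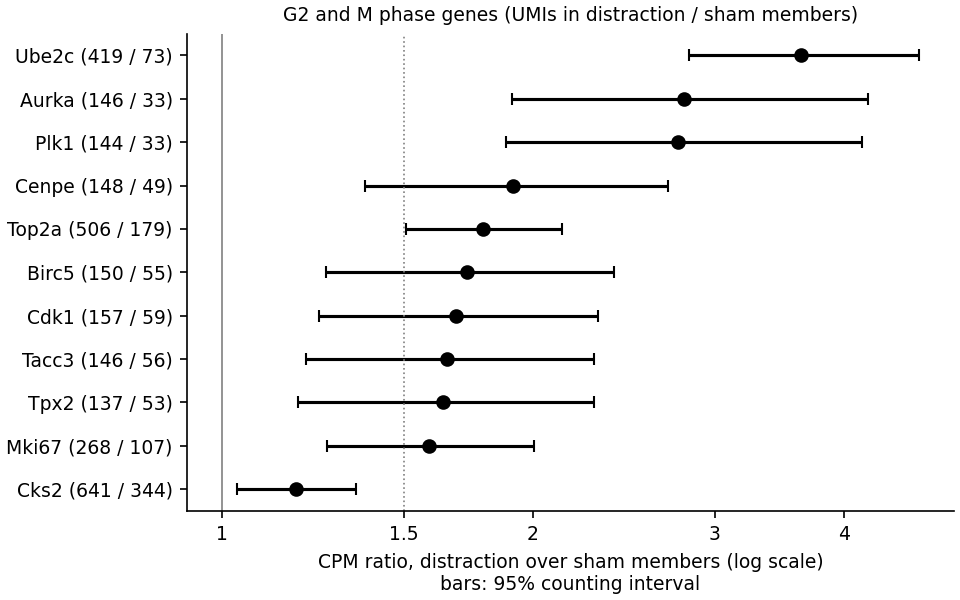
CPM ratio of distraction over sham members for the 11 tested G2 and M phase genes, on a log axis with 95% counting intervals, with the UMIs in distraction and sham members in brackets. All points lie above 1, 10 of them past 1.5 (dotted line), and Ube2c is at 3.63.

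Counted per cell, with each cell thinned to 2000 UMIs, 47 of 358 distraction members (13.1%, 9.81 to 17.1%) and 22 of 257 sham members (8.56%, 5.44 to 12.7%) had 5 or more UMIs of these genes. The ratio of 1.53 had an interval that reached below 1 (0.906 to 2.67), so a difference in the share of such cells was not detectable at this number of cells. Without thinning the shares were 17.4% in distraction and 15.1% in sham members. With thinning, stage A cells reached 41.7% in distraction (35.3 to 48.4%) and 41.5% in sham (33.1 to 50.3%), and stage C cells 0.797% in distraction and 2.13% in sham. Thinning dropped 5 distraction and 34 sham stage A cells as too shallow. Without thinning the stage A shares were 76.2% in distraction and 61.5% in sham. Nearly all members with 5 or more such UMIs after thinning had A as second score: 43 of 47 in distraction and 18 of 22 in sham. Among members with A second the share was 23.0% in distraction (17.2 to 29.7%) and 15.0% in sham (9.14 to 22.7%), and among members with C second 1.82% in distraction and 2.27% in sham.

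**Figure D5:**
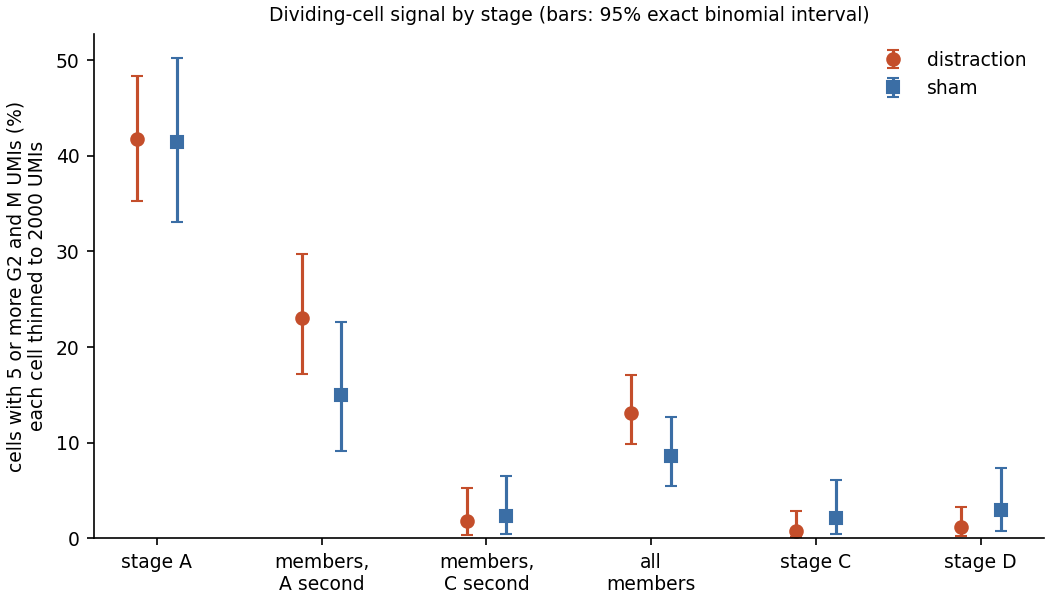
Share of cells with 5 or more UMIs of G2 and M phase genes after thinning to 2000 UMIs, with exact binomial intervals, by stage and, for members, by second score, with distraction left of sham. The shares are 41.7% in distraction stage A cells, 13.1% in distraction members and 8.56% in sham members, and the intervals of the libraries overlap in every group.

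In the members with 5 or more such UMIs, Ube2c stood at 699 CPM in the 47 distraction cells and 295 CPM in the 22 sham cells, Aurka at 190 CPM in distraction and 62.1 CPM in sham, and Plk1 at 236 CPM in distraction and 129 CPM in sham. Mki67 stood at 412 CPM in distraction and 419 CPM in sham, and Top2a at 793 CPM in distraction and 694 CPM in sham. Tpx2 stood at 222 CPM in distraction and 243 CPM in sham, and Birc5 (survivin) at 245 CPM in distraction and 217 CPM in sham. These genes chose the cells and the first 3 were named for their difference between all members, so the values are a description. Compared with the other members, the same cells held less Ngp, at 32532 CPM against 66787 CPM in distraction and 29233 CPM against 57669 CPM in sham. They held more Camp, at 24475 CPM against 16953 CPM in distraction and 24624 CPM against 16145 CPM in sham, and less Mmp8, at 469 CPM against 4090 CPM in distraction and 1056 CPM against 4099 CPM in sham. Fam111a, a replication-associated protease named here after its values were seen, stood at 1555 CPM against 36.3 CPM in distraction and 1253 CPM against 67.1 CPM in sham.

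Markers of other cells in the members were also measured, and their part in the results was not tested. The 5 erythroid markers summed to 502 CPM in distraction members and 3653 CPM in sham members, where 1 cell held 1897 of the UMIs. They had 3 or more UMIs in 53.4% of distraction members and 54.3% of sham members, with a median of 3 UMIs in both. The 5 B-lineage markers summed to 48.4 CPM in distraction members and 183 CPM in sham members. None of these markers was at 0 in either library. Leaving out members with markers of another cell type, a choice made after seeing the data, left 341 distraction and 210 sham members. The erythroid cut in this setting was 20 UMIs, so most members with 3 or more erythroid UMIs stayed in. Among the members left, 62 of 2059 genes (3.01%) were higher and 111 (5.39%) lower. Of 11 G2 and M phase genes 10 were higher, with a median log2 ratio of 1.11. Of these 10 only Top2a reached 50 CPM in both libraries, at 194 CPM in distraction and 66.5 CPM in sham. The rest passed the minimum through distraction alone, so this count supports nothing by itself. Ube2c then had a ratio of 3.55 (2.67 to 4.8) and Top2a one of 2.91 (2.28 to 3.77).

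The 10 genes named as highest in distraction members were Ube2c, Aurka, Plk1 and 7 more. Cenpw (a centromere protein) stood at 77.3 CPM in distraction and 32.0 CPM in sham members, Pttg1 at 86.4 CPM in distraction and 36.5 CPM in sham, and Prc1 (a midzone microtubule bundler) at 96.7 CPM in distraction and 45.0 CPM in sham. Cdkn3 (a cyclin-dependent kinase phosphatase) had a ratio of 2.11 and H2afz (a histone variant) one of 2.12. Mboat1, a phospholipid acyltransferase, stood at 59.9 CPM in distraction and 23.5 CPM in sham members (ratio 2.55, 1.76 to 3.78). Tspan2, a tetraspanin, had a UMI in 193 distraction members and 95 sham members, with 195 CPM in distraction and 102 CPM in sham (ratio 1.91, 1.59 to 2.31).

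The 10 genes named as lowest in distraction members included 8 whose level outside the gate was highest in B-lineage cells. Cd72, a B cell inhibitory receptor, stood at 16.9 CPM in distraction members and 123 CPM in sham members (ratio 0.138, 0.0960 to 0.194), and Rhoh at 34.7 CPM in distraction and 112 CPM in sham (ratio 0.311, 0.237 to 0.406). The 8 also included Rfc3, Slc44a2, Ube2e3, Rbm38 and Senp6, with ratios of 0.359 to 0.460. Ppp1r10 had a ratio of 0.457 and Scd2 one of 0.470. B-lineage markers had 3 or more UMIs in 8 distraction members and 27 sham members, and eosinophil, basophil and mast cell markers summed to 116 CPM in distraction and 443 CPM in sham members. Of the UMIs in the latter sum, 1 cell held 123 of 281 in distraction and 1 cell held 265 of 679 in sham. Among the 176 lower genes, 40 were under 10% of the level of another class, 15 of them with B-lineage cells as the highest. Without the members that carried markers of another type, Rhoh had a ratio of 0.668 (0.447 to 1.0), Rfc3 one of 0.660 (0.398 to 1.10), and Cd72 one of 0.25 (0.114 to 0.516). Ube2e3 turned direction in that setting, at a log2 ratio of 0.06.

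By totals, calls were few in the lists of granule, receptor and metabolic genes. None of 5 tertiary granule, 16 receptor, 7 NADPH oxidase, 12 glycolysis, 16 respiratory chain or 23 migration and actin genes was called by totals. By this scaling 1.96% of all genes tested were higher and 8.03% lower. TMM factors called 2 of 10 secondary granule, 2 of 16 receptor, 1 of 12 glycolysis and 3 of 17 respiratory chain genes higher. They called 6.41% of all genes tested higher, and these lists are short. By totals, 1 of 10 secondary granule genes was called, Fcnb, and 1 cell held 91.3% of its distraction UMIs. Olfm4 stood at 3934 CPM in distraction members and 2808 CPM in sham members (ratio 1.40, 1.35 to 1.45), and with TMM factors its ratio was 1.64 (1.58 to 1.70), past the threshold. Ccl2, the 1 cytokine gene called higher, had 83.7% of its distraction UMIs in 1 cell. Cxcr4 stood at 918 CPM in distraction members and 1300 CPM in sham members, a ratio of 0.706 (0.664 to 0.751) that did not pass the threshold.

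Among transcription factor genes, 3 of 14 tested were lower in distraction members by totals, where 8.03% of all genes were, and none of 15 with TMM factors. Junb (an AP-1 subunit) stood at 793 CPM in distraction and 1218 CPM in sham members (ratio 0.651), Egr1 (an early growth response factor) at 133 CPM in distraction and 230 CPM in sham (ratio 0.579). Of the cytokine list, Ptgs2 (cyclooxygenase 2) stood at 110 CPM in distraction and 191 CPM in sham (ratio 0.575). Of the folding list, Hspa5, the chaperone BiP, stood at 426 CPM in distraction and 713 CPM in sham (ratio 0.598). With TMM factors none of these was called: the ratios were 0.760 for Junb, 0.677 for Egr1, 0.672 for Ptgs2 and 0.699 for Hspa5. Without the members carrying markers of another type, Junb had a ratio of 0.592 (0.553 to 0.634) and Hspa5 one of 0.564 (0.513 to 0.620).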

How the data were processed

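The deposited tables hold whole-number UMI counts per cell and gene, which the authors made, per the file headers, by running BD WTA Rhapsody Analysis Pipeline 1.5.1. Rnor_6.0 and Seurat 3.6 are named in the submitters' processing notes. The tables list 20560 genes in distraction and 20412 in sham, 22154 in union. No doublet caller was run. Counts were summed over the members of each library and scaled to CPM with python 3.11.15, numpy 2.4.6, scipy 1.17.1 and pandas 2.3.3; edgeR 4.0.16 gave TMM factors only. A gene was tested with at least 30 counts over both libraries and 50 CPM in 1, and called past a ratio of 1.5 with an exact 95% interval on 1 side of 1. The ratio and its interval were checked on simulated data. Named genes are the 10 highest and 10 lowest called between libraries, and the 8 highest and 8 lowest against each stage called in both libraries, without genes under 10% of their level in another class of cells, plus up to 4 per list. Score and gate genes are given as description. Alternatives were other filters, scalings, thresholds, thinning and subsets of members. The members and gene lists were chosen with earlier results of these data known. Results of a few genes that this rule names are not reported here.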

Additional observations from a re-analysis of the deposited data

How the results depend on the processing

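The ratio of member shares among gated neutrophils stayed between 0.846 and 0.952 under 11 alternatives. The number of genes tested was not the same in every setting, so a count without a share beside it cannot be read as a change in the result. Higher genes were 43 of 2193 by totals (1.96%) and 141 of 2201 with TMM factors (6.41%). With totals without the rule's genes they were 112 of 2795 (4.01%). Their count was 68 without mixed and deepest cells, 180 with 10 counts and no CPM minimum, 12 at a ratio of 2 and 79 in members with A second. The count of lower genes, 176 (8.03%), was 62 with TMM factors (2.82%), 829 with 10 counts and 44 at a ratio of 2. The 10 higher G2 and M phase genes became 1 with thinning, 2 without mixed and deepest cells, 19 with 10 counts, 3 at a ratio of 2 and 0 in members with C second. With C second, Tpx2 stood at 9.51 CPM in distraction and 4.20 CPM in sham, and Ube2c at 11.6 and 11.2 CPM. Such genes lay below the 50 CPM minimum and could not be called, so this 0 says little. Thinning and leaving out cells also lower the counts, so fewer genes may reach the minimum. Against stage A, the 434 higher and 383 lower genes were 189 and 132 without mixed and deepest cells, 217 and 167 at a ratio of 2, and 738 and 1036 with 10 counts. Against stage C, the 349 higher genes were 232 with thinning, 173 without mixed and deepest cells, 166 at a ratio of 2, 759 with 10 counts and 601 without the rule's genes, and the 536 lower genes were 267 at a ratio of 2. Settings chosen after seeing the data gave 73 higher genes without members with B-lineage UMIs, 111 lower genes without members with markers of another type, and 22 higher genes and 0 G2 and M phase genes without members with 5 G2 and M UMIs, which removes cells by the genes counted and so fixes that 0. The ratio of 1.53 in the share of such members was 0.8 with C second. For 20 named genes, 290 of 340 values stayed within the interval, 41 moved and 9 turned direction. On the log2 scale these 9 were Ube2e3 at 0.10 without mixed and deepest cells, 0.043 without B-lineage UMIs and 0.056 without markers of another type, Plk1 at -0.039 and Cdkn3 at -1.96 with C second, and Ube2c at -0.80, Cenpw at -1.22, Pttg1 at -0.091 and Cdkn3 at -1.15 without members with 5 G2 and M UMIs. The cause was not tested. No paired analysis was possible because each group has 1 library.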
